A study of Mus musculus with 3 samples.

Results

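The regions described here are CAP-D3 peaks of Rb+/+ mouse cells that lie far from any CAP-D3 peak of RbΔL/ΔL cells. They were selected on peak positions in both lists: an autosomal Rb+/+ peak was taken when the nearest RbΔL/ΔL peak on its chromosome was 500 kb or more away, edge to edge. This rule took 537 of the 7974 Rb+/+ peaks on chromosomes 1 to 19 (6.73%, exact 95% interval 6.19 to 7.31%), out of 8195 Rb+/+ peaks in all. They are called far peaks below. A further 6387 autosomal Rb+/+ peaks met no RbΔL/ΔL peak but lay less than 500 kb from one, and are called near unmatched peaks. The other 1050 shared 1 bp or more with a RbΔL/ΔL peak and are called matched peaks.

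CAP-D3 was immunoprecipitated from primary mouse embryonic fibroblasts, dividing and at passage 4, and the recovered DNA was sequenced (ChIP-seq). The 3 samples are the immunoprecipitates of Rb+/+ cells and of RbΔL/ΔL cells, which carry the mutant allele on both copies, and input DNA taken without antibody, which was not analysed here. Each ChIP is represented by 1 list of peaks with positions in the mm9 build and a score from the authors' peak caller. With 1 library per genotype there is no replicate error, no test of genotype was possible, and every interval below covers counting error only. Read depth is unknown, and a peak absent from a list may have had signal under the caller's threshold. No annotation or genome of mm9 was used here, so whether a peak is genic, exonic or intronic was not determined, and peaks are given by position alone, with no sequence.

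CAP-D3 belongs to condensin II as one of its non-SMC subunits. Condensin II is present in the nucleus throughout the cell cycle and helps to fold and compact chromosomes. RB, the retinoblastoma protein, restrains E2F transcription factors and also binds chromatin proteins through a pocket that recognises the LXCXE motif. The RbΔL allele disrupts that pocket. RB, E2F1 and condensin II have been described as parts of one complex, and the comparison of both lists asks where CAP-D3 is found with and without the pocket.

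The far peaks scored low within the Rb+/+ list. Their scores had a median of 59.05 (quartiles 55.09 and 64.99, highest 203.71), starting from 50.11. The highest-scoring far peak held rank 413 among the 7974 autosomal Rb+/+ peaks. Near unmatched peaks had a median of 60.83 (quartiles 55.47 and 70.23, highest 437.8), and matched peaks a median of 149.15. A score of 100 or more was held by 13 far peaks (2.42%, interval 1.30 to 4.10%), against 12.8% of all autosomal Rb+/+ peaks and 311 near unmatched peaks (4.87%). The difference of these shares, far minus near unmatched, was -2.45 percentage points (Newcombe 95% interval -3.59 to -0.698). At a minimum of 80 the shares were 8.75% and 13.5%. Near unmatched peaks just short of the limit, at 250 to 500 kb, were closer to the far peaks. Their median score was 59.36, and 3.95% of them (interval 2.75 to 5.48%) reached 100. In the RbΔL/ΔL list no gap between far and near unmatched peaks was seen by the same measure: 17 of its 366 far peaks (4.64%) and 226 of its 4865 near unmatched peaks (4.65%) reached 100, with an interval of the difference of -1.84 to 2.72 points. Whether the gap differs between the lists was not tested, and scores of different lists may not be on a common scale.

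The highest score, 203.71, belonged to a peak of 726 bp on chromosome 6 at 64992476 to 64993201, 736 kb from the nearest RbΔL/ΔL peak. Next came a peak of 170 bp on chromosome 6 at 25575813 to 25575982 (score 132.39, 1046 kb away). The third was a peak of 469 bp on chromosome 3 at 85377610 to 85378078 (score 126.52, 568 kb away). The fourth was a peak of 214 bp on chromosome 5 at 46780574 to 46780787 (score 117.93, 531 kb away). Of these 4, only the first exceeded the medians of matched peaks in both score and width (149.15 and 513 bp).

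Ranks 5 to 12 among the far peaks were tied. All 8 peaks had a score of exactly 103.84, with widths from 200 to 231 bp. They lay on chromosome 9 at 31897916 to 31898146 and at 114319624 to 114319835, chromosome 11 at 41656378 to 41656591, chromosome 8 at 36654834 to 36655045 and at 100327731 to 100327937, chromosome 2 at 137614145 to 137614354, chromosome 12 at 79149961 to 79150168 and chromosome 17 at 49071251 to 49071450. The same score was held by 29 of the near unmatched peaks (0.454%), against 1.49% of the far peaks, and by none of the 1050 matched peaks, which allows a share of up to 0.351%. The last of the 13 was a peak of 341 bp on chromosome 10 at 32973707 to 32974047 (score 101.45).

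High-scoring far peaks were mostly narrow. Score and width are not separate measures here, since along some lines of points the score was lower for wider peaks. Along other lines the score stayed the same while width varied, as at 103.84 for far peaks of 200 to 231 bp. Whether the narrow width itself accounts for these scores was not tested. Of the 13 with a score of 100 or more, 10 (76.9%, interval 46.2 to 95%) were 250 bp wide or less. Among near unmatched peaks of that score it was 34 of 311 (10.9%, interval 7.69 to 14.9%), a difference of 66.0 points (Newcombe interval 38.5 to 81.2). Among matched peaks it was 3 of 696 (0.431%). The RbΔL/ΔL list had 13 narrow peaks among its 17 far peaks at 100 or more (76.5%) and 106 among its 226 such near unmatched peaks (46.9%). The limit of 250 bp was chosen after widths were seen. Without the narrow peaks, 3 of 514 far peaks reached a score of 100 (0.584%), against 277 of 6213 near unmatched peaks (4.46%).

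**Figure D1:**
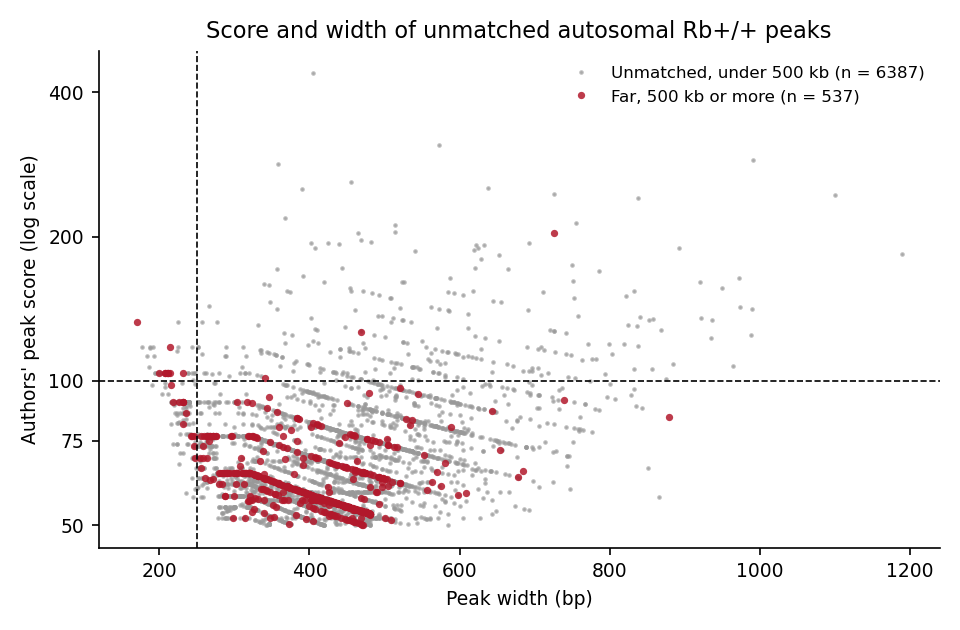
Width in bp (x axis) and the authors' peak score on a log scale (y axis) of the 537 far Rb+/+ peaks (red) and the 6387 near unmatched ones (grey). Dashed lines mark a width of 250 bp and a score of 100, and 10 of the 13 red points above 100 lie left of 250 bp. Many points fall on sloping lines along which the score is lower for wider peaks, and others on flat lines of a repeated score.

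Widths over all far peaks were close to those of other unmatched peaks, with fewer broad ones. Far peaks had a median width of 414 bp (interval of the median 406 to 424, quartiles 343 and 460), near unmatched peaks 423 bp (420 to 425), and matched peaks 513 bp. Near unmatched peaks at 250 to 500 kb from a RbΔL/ΔL peak had a median of 412 bp. Only 34 far peaks (6.33%) exceeded 500 bp, against 12.6% of near unmatched peaks, a difference of -6.26 points (interval -8.21 to -3.74). The RbΔL/ΔL list showed the same direction, with 4.10% of its far and 8.45% of its near unmatched peaks over 500 bp (-4.35 points, interval -6.14 to -1.69). At the narrow end, 23 far peaks (4.28%, interval 2.73 to 6.36%) were 250 bp or less, against 2.62% of all autosomal Rb+/+ peaks. The difference from near unmatched peaks (2.72%) was 1.56 points (interval 0.0829 to 3.65). In the RbΔL/ΔL list 6.56% of far and 5.86% of near unmatched peaks were that narrow (0.699 points, interval -1.52 to 3.78). Within bands of score the medians were 461 and 458 bp (far and near unmatched, scores of 50 to 55), 410.5 and 408 bp (55 to 60), 359.5 and 370 bp (60 to 70), and 360 and 414 bp (70 to 100). Below a score of 60 the median widths thus lay within 3 bp of each other, and the gap was widest above 100, at 212 and 509 bp.

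The 5 widest far peaks were on chromosome 14 at 102910615 to 102911493 (879 bp, score 84.12), chromosome 8 at 29409483 to 29410221 (739 bp, score 91.32), the top-scoring chromosome 6 site above, chromosome 11 at 8558959 to 8559642 (684 bp, score 64.94) and chromosome 13 at 7058307 to 7058984 (678 bp, score 62.92). The chromosome 14 peak had a second far peak 0.74 kb beside it, at 102909438 to 102909876. No far peak reached 1 kb.

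Many far peaks carried values identical to those of peaks elsewhere. Width and score were both equal to those of another autosomal Rb+/+ peak in 430 far peaks (80.1%, interval 76.4 to 83.4%), against 4502 near unmatched peaks (70.5%) and 207 matched peaks (19.7%). The difference from near unmatched peaks was 9.59 points (Newcombe interval 5.83 to 12.9). It was not taken within bands of score. Whether it is separate from the lower scores of far peaks was not tested. The commonest score, 64.24, was held by 35 far peaks (6.52%), all 280 to 321 bp wide, and by 3.84% of all autosomal Rb+/+ peaks. A score of 76.95 was held by 19 far peaks (3.54%, against 2.35%). At 5 widths, 5 or more far peaks of that width had the same score. All 6 far peaks of 478 bp had a score of 53.02, and all 5 of 372 bp had 60.11. Among all autosomal Rb+/+ peaks, the 50 of 478 bp took 12 scores and the 29 of 372 bp took 13. Larger groups can take more scores, so these numbers are not comparable with those of far peaks. Scores of 53.02 and 60.11 were held by 1.12% and 0.931% of far peaks. Over all autosomal Rb+/+ peaks they were held by 31 and 17 peaks (0.389% and 0.213%). These widths and scores were picked because far peaks shared them, which raises the far shares by construction. At 475 bp the 6 far peaks took 2 scores, at 470 bp the 8 took 3, and at 426 bp the 9 took 5. Read counts per peak were not analysed here.

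Far peaks were sparse in the sequence where the rule lets them lie. After the first 3 Mb of each autosome, which the assembly leaves nearly empty, 498.0 of 2415.3 Mb (20.6%) was 500 kb or more from every RbΔL/ΔL peak. If all 7974 autosomal Rb+/+ peaks were set down evenly on their own chromosomes, keeping their widths, 1594.7 of them would be far. The observed 537 are 0.337 times that number (interval 0.309 to 0.366). Rb+/+ peaks had a density of 1.08 per Mb in far sequence (interval 0.989 to 1.17) and 3.88 per Mb elsewhere. Peaks of both lists share the same assembly gaps and the same sequence to which reads cannot be assigned. Far sequence was not corrected for these, and their part in the low density was not tested.

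Density kept changing with distance inside and outside the limit. Rb+/+ peaks without overlap stood at 7.15 per Mb in sequence under 10 kb from a RbΔL/ΔL peak and at 1.83 per Mb between 250 and 500 kb. Far peaks stood at 1.33 per Mb between 500 and 750 kb (290 peaks), 1.03 between 750 and 1000 kb (121 peaks), 0.936 between 1000 and 1500 kb (94 peaks) and 0.520 beyond (32 peaks, interval 0.355 to 0.734). The limit of 500 kb thus cuts a gradual decline and marks no step. Peaks at its edges were alike: the 3 nearest inside lay 500127 bp (chromosome 1 at 139920065 to 139920360), 500804 bp (chromosome 9 at 83861312 to 83861766) and 501942 bp (chromosome 4 at 74516807 to 74517201) from a RbΔL/ΔL peak, with scores of 76.95, 54.40 and 58.40. The 3 nearest outside lay at 499381 bp (chromosome 7 at 57033671 to 57034099), 499245 bp (chromosome 11 at 24731903 to 24732212) and 498552 bp (chromosome 6 at 18120626 to 18120996), with scores of 67.53, 64.24 and 60.18.

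**Figure D2:**
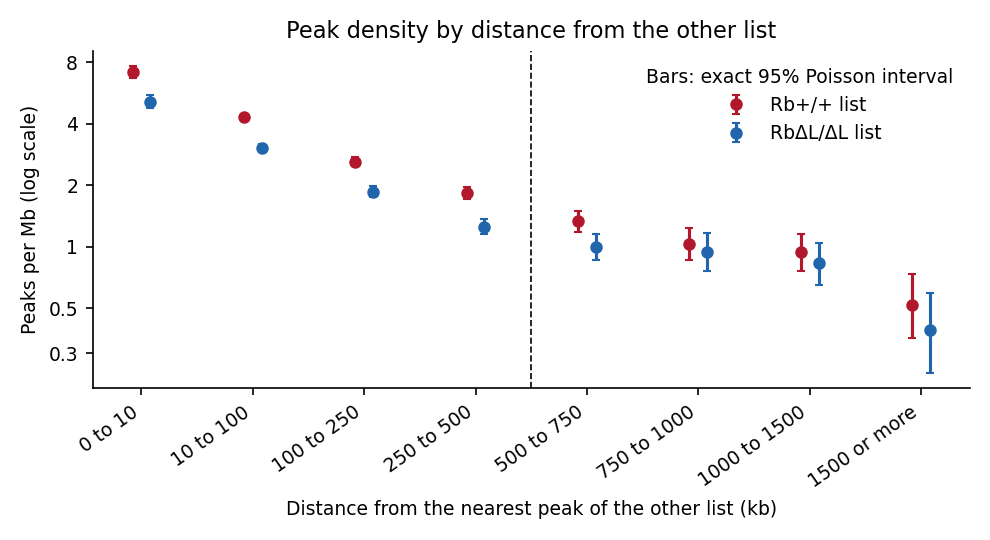
Peaks per Mb of autosomal sequence (y axis, log scale) by distance in kb from the nearest peak of the other list (x axis), for Rb+/+ (red) and RbΔL/ΔL (blue) peaks without overlap, with exact 95% Poisson intervals. The dashed line marks 500 kb, and the Rb+/+ density goes from 7.15 in the first band to 0.520 in the last with no step at the line.

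The median far peak lay 725.2 kb from a RbΔL/ΔL peak (quartiles 595.37 and 988.29), and 126 lay 1 Mb or more away. The farthest were 3 peaks of one region of chromosome 15, at 18650132 to 18650544 (4533 kb away, score 57.13), 21210501 to 21210786 (3815 kb, score 64.24) and 16710414 to 16710776 (2593 kb, score 56.49). Next came chromosome 14 at 111786817 to 111787260 (2515 kb, score 55.09) and chromosome 15 at 46959257 to 46959500 (2461 kb, score 76.95). None of these 5 most remote peaks reached a score of 100.

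With the lists exchanged, a similar ratio was found. Of 6283 autosomal RbΔL/ΔL peaks, 366 (5.83%, interval 5.26 to 6.43%) lay 500 kb or more from an Rb+/+ peak, 0.909 points fewer than in Rb+/+ (Newcombe interval of the difference 0.104 to 1.70). They were 0.346 times the number from even placement (interval 0.312 to 0.383), beside 0.337 for Rb+/+. The Rb+/+ list is the longer one, and the order of the shares turned when it was cut by score to the length of the RbΔL/ΔL list. At that length, far peaks numbered 397 of 6266 in Rb+/+ (6.34%) and 525 of 6283 in RbΔL/ΔL (8.36%), a difference of -2.02 points (interval -2.93 to -1.11). That cut removed only the lowest-scoring Rb+/+ peaks.

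Far sequence was broken into 622 stretches, each bounded by RbΔL/ΔL peaks or a chromosome end and trimmed by 500 kb on each bounded side, with a median length of 481 kb. A far peak was found in 266 stretches (42.8%), and 356 held none. Spreading 537 peaks evenly over far sequence by length would fill 276.5 stretches, close to the total found. That total does not show an even spread, since density differed with stretch length, as given below. Stretches with 2 or more far peaks numbered 143 and held 414 of them, and 19 stretches held 5 or more. Only 10 far peaks lay beyond the outermost RbΔL/ΔL peak of their chromosome.

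Long stretches held a far peak more often, which greater length would bring by itself, and they were filled more thinly. The share that an even spread would fill is not given here by stretch length. Under 250 kb, 29 of 199 stretches (14.6%) held a far peak, and from 2 Mb up 40 of 56 (71.4%) did. The density was 1.35 far peaks per Mb (interval 0.937 to 1.89) in stretches under 250 kb and 1.59 (1.24 to 2.02) in those of 250 to 500 kb. In stretches of 2 Mb or more it was 0.737 (0.614 to 0.878). The longest stretch, 9.91 Mb on chromosome 15 at 14617476 to 24525716, held 6 far peaks with scores of 51.01 to 66.49. The next longest, 6.48 Mb on chromosome 7 at 39556550 to 46040855, held none, like 5.16 Mb at the start of chromosome 14 (3000001 to 8155419) and 5.05 Mb on chromosome 7 (6815792 to 11867989).

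**Figure D3:**
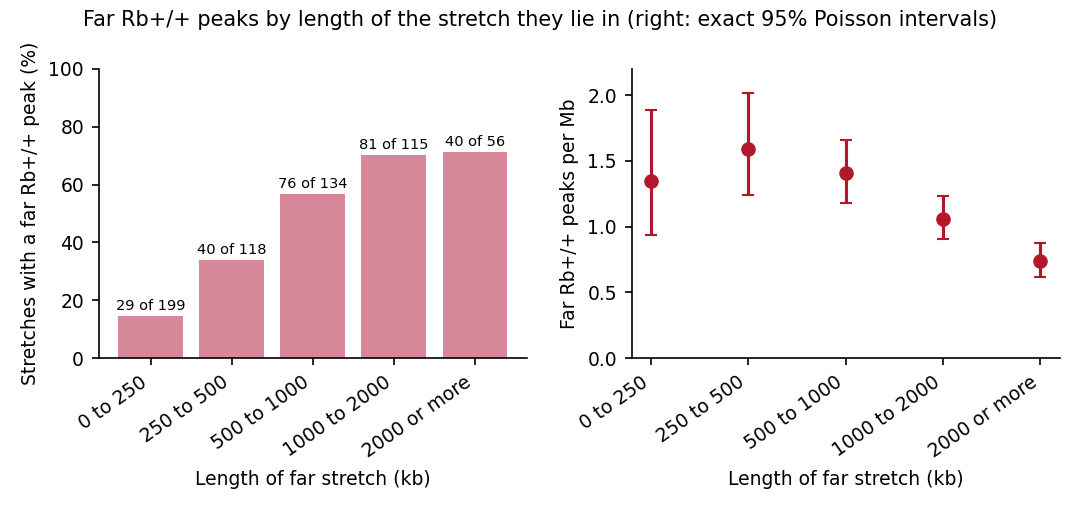
Left, percent of far stretches that held at least 1 far Rb+/+ peak, by stretch length in kb, with the numbers above the bars. Right, far Rb+/+ peaks per Mb in the same classes with exact 95% Poisson intervals. The share filled goes from 14.6% to 71.4%, a rise that greater length would bring by itself, while the density in the longest class is 0.737 per Mb.

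Most far peaks had another far peak as their neighbour in the Rb+/+ list. Taking runs of consecutive Rb+/+ peaks that were all far, 427 of 537 (79.5%, interval 75.9 to 82.9%) lay in 144 runs of 2 or more, and 110 stood alone between nearer Rb+/+ peaks. There were 74 pairs, 33 runs of 3, 16 of 4, 13 of 5, 6 of 6, 1 of 7 and 1 of 8. Membership in a run follows in part from the rule, since neighbours share the same distance from RbΔL/ΔL peaks. Runs of 2 or more spanned a median of 391 kb (quartiles 174 and 1029), and 12 of the 144 had a RbΔL/ΔL peak between their members. No even-placement number is given here for runs. In the RbΔL/ΔL list, 242 of 366 far peaks (66.1%, interval 61.0 to 71.0%) lay in such runs, and the largest held 7. The Rb+/+ list is the longer one. Cut by score to the length of the RbΔL/ΔL list, it had 289 of 397 far peaks (72.8%) in runs. The 66.1% of the RbΔL/ΔL list was taken against the whole Rb+/+ list. Its counterpart against the cut list was not computed, so these 2 shares are not at a common setting.

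The longest run by number held 8 far peaks on chromosome 2 from 106255253 to 109731238, a span of 3476 kb, with scores of 51.73 to 81.19. A RbΔL/ΔL peak lay inside it, in its widest gap of 1644.7 kb. The first 3 peaks of this run, at 106255253 to 106255532, 106279998 to 106280424 and 106331649 to 106331988, had scores of 60.83, 56.19 and 56.49. The run of 7, on chromosome 9 from 111625496 to 114319835, filled the stretch with the most far peaks (2.82 Mb, 111527427 to 114342865). Its scores were 50.39, 56.93, 66.05, 59.42, 63.89, 55.10 and 103.84 in order along the chromosome, and its highest-scoring member was the narrow peak of 212 bp at its end.

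The tightest run of 6 lay on chromosome 1 from 139132379 to 139920360, a span of 788 kb within 1.79 Mb free of RbΔL/ΔL peaks. Its members had scores of 53.85, 64.24, 57.07, 76.14, 58.69 and 76.95 and widths of 290 to 464 bp. The next 3 runs of 6 by span lay on chromosome 8 from 93364338 to 94160757 (796 kb, scores 53.14 to 89.98) and on chromosome 11 from 7514481 to 8559642 (1045 kb, scores 55.09 to 73.02) and from 91923608 to 93183513 (1260 kb, scores 53.02 to 80.83). The other runs of 6 were longer, on chromosome 18 from 24876651 to 28224183 (3348 kb, scores 56.49 to 76.54) and on chromosome 15 from 15672645 to 23745624 (8073 kb, scores 51.01 to 66.49). The 6 runs of 6 and the run of 7 had no RbΔL/ΔL peak inside, and each lay in its own stretch. Those stretches held no other far peak, and no other stretch held 6 or more.

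**Figure D4:**
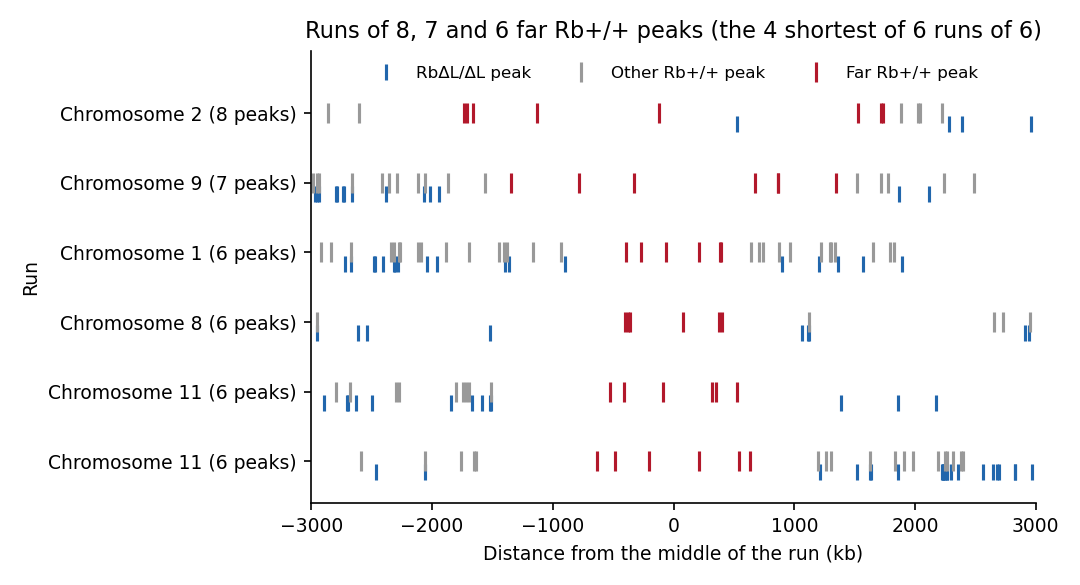
Position of far Rb+/+ peaks (red), other Rb+/+ peaks (grey) and RbΔL/ΔL peaks (blue, set lower) around the run of 8, the run of 7 and the 4 shortest of the 6 runs of 6, in kb from the middle of each run (x axis). Blue marks are missing for 500 kb or more around each red one, and a RbΔL/ΔL peak lies inside the chromosome 2 run. At this scale close peaks can overlie each other, such as those 4.28 kb apart in the chromosome 9 run and 7.96 kb apart in the chromosome 1 run.

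Spacing within the Rb+/+ list was wide around far peaks. Their nearest other Rb+/+ peak lay a median of 225.1 kb away (quartiles 73.94 and 496.1), against 55.85 kb for near unmatched peaks. Another Rb+/+ peak within 10 kb was present for 30 far peaks (5.59%, interval 3.80 to 7.88%), against 17.3% of all autosomal Rb+/+ peaks. An even spread at the density of far sequence would give 2.14%. Of near unmatched peaks at 250 to 500 kb from a RbΔL/ΔL peak, 8.6% (interval 6.82 to 10.7%) had such a neighbour. Spacing was wide around far RbΔL/ΔL peaks too: 3.28% of them and 11.8% of near unmatched RbΔL/ΔL peaks had a neighbour of their own list within 10 kb (-8.54 points, interval -10.2 to -6.02), with medians of 329.3 and 79.79 kb to the nearest. Of the 30, 20 had their neighbour within 1 kb. Once peaks within 1 kb of each other were merged, 10 of 527 (1.90%) still had a neighbour within 10 kb. Within 100 kb the share was 30.0% (161 peaks), against 19.4% from an even spread and 66.8% of near unmatched peaks. The even-spread shares use only the 1.08 peaks per Mb of far sequence, but neighbours outside far sequence were counted too. Rb+/+ peaks without overlap stood at 1.83 per Mb in sequence at 250 to 500 kb. The part of this difference in the shares was not tested.

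The closest pairs were nearly touching. Far peaks of 453 and 468 bp on chromosome 6, at 22371292 to 22371744 and 22371747 to 22372214, were 2 bp apart, with scores of 54.53 and 57.12. On chromosome 9, peaks at 7184218 to 7184568 and 7184582 to 7184844 were 13 bp apart (scores 55.04 and 76.95). Gaps of 165, 249 and 423 bp separated pairs on chromosome 12 (100139101 to 100139433 and 100139599 to 100140081), chromosome 13 (81320551 to 81320934 and 81321184 to 81321660) and chromosome 2 (67455134 to 67455359 and 67455783 to 67456102). Such pairs are counted as 2 regions each and need not be independent sites.

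Chromosomes contributed unequally. Chromosomes 1 and 2 held 45 far peaks each (8.38%), chromosome 12 held 42 (7.82%, interval 5.69 to 10.4%) and chromosome 19 only 6 (1.12%). Chromosome 12 stood out against its own list: it carried 3.49% of autosomal Rb+/+ peaks, and 42 of its 278 peaks (15.1%, interval 11.1 to 19.9%) were far. Chromosome 14 came next with 35 of 287 (12.2%, interval 8.64 to 16.6%), and chromosome 19 was lowest with 6 of 275 (2.18%, interval 0.805 to 4.69%). The room available differed likewise, since far sequence made up 27.4% of chromosome 12, 31.8% of chromosome 14 and 9.17% of chromosome 19. Among peaks 1 Mb or more away, 6 of 126 (4.76%) were on chromosome 12.

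Measured per Mb of far sequence, other chromosomes led. Chromosome 11 held 1.89 far peaks per far Mb (interval 1.31 to 2.62) and chromosome 9 held 1.70 (1.14 to 2.44), against 1.08 over all autosomes. Chromosome 7 was lowest at 0.493 (0.297 to 0.770). Chromosomes 11 and 9 also carried more Rb+/+ peaks per Mb of their whole sequence, 5.2 and 3.96, against 3.3 over all autosomes. Relative to even placement of their own Rb+/+ peaks, their far peaks were 0.363 and 0.428 times the number, beside 0.337 over all autosomes. An even spread over far sequence would give 18.4 far peaks on chromosome 9 and 41.6 on chromosome 7, where 29 and 19 were found. On the 16 autosomes other than 7, 9 and 11 the exact Poisson interval of the count included the even number. Chromosome 7 also held the 2 long stretches without any far peak named above. Without them it held 19 far peaks in 27.0 Mb of far sequence, or 0.703 per Mb. The interval, 0.424 to 1.10, includes the 1.08 of all autosomes. Those stretches were left out because they were empty, which raises the value by construction. On all 19 autosomes far peaks were fewer than even placement of that chromosome's Rb+/+ peaks would give, from 0.137 times on chromosome 7 to 0.551 times on chromosome 12.

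**Figure D5:**
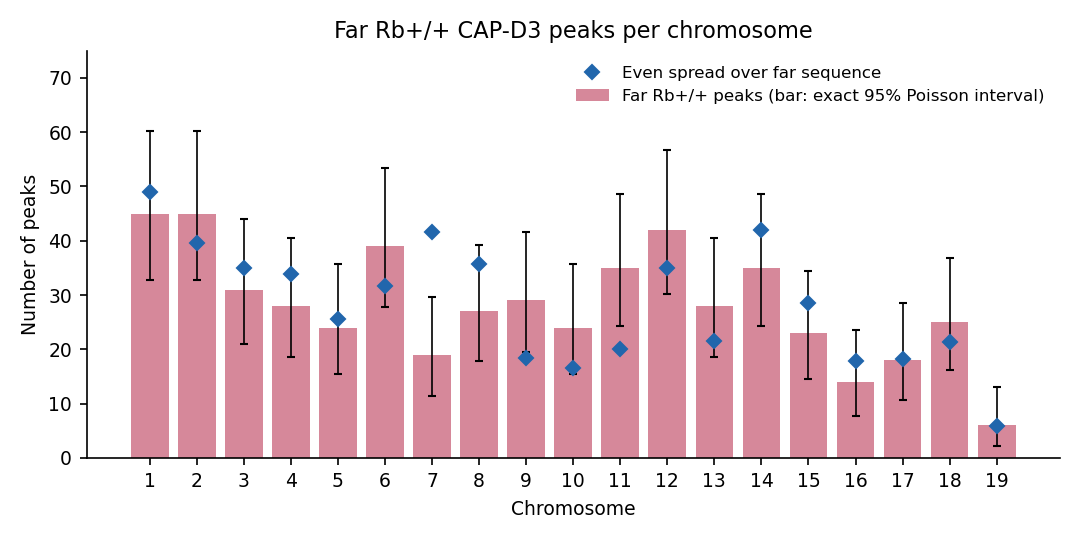
Number of far Rb+/+ peaks on each autosome (bars, with exact 95% Poisson intervals) and the number that an even spread over far sequence would give (blue diamonds). Chromosomes 9 and 11 lie above their diamonds and chromosome 7 below, while the intervals of the other 16 include them. The diamonds take no account of how many Rb+/+ peaks each chromosome carries.

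By number, far peaks were spread almost evenly along the chromosomes, though not per Mb of far sequence. Counted in 5 equal parts of each chromosome from 3 Mb to its end, the centromeric end first, they numbered 99, 116, 103, 117 and 102. Near unmatched peaks leaned to the distal end, with 16.1% of them in the first part and 24.0% in the last. Far sequence was longest in the first part (115.1 Mb) and shortest in the last (80.9 Mb). Per Mb of it, far peaks numbered 0.860 in the first part (interval 0.699 to 1.05) and 1.26 in the last (1.03 to 1.53), with the highest value, 1.34 (1.11 to 1.60), in the fourth.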

How the data were processed

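Peaks of 2 CAP-D3 ChIP-seq libraries were analysed. The submitters' processing notes name Bowtie 1.0, MACS 1.4.2 and mm9. No source used here gives the parameters, the control library or the treatment of duplicate reads. The deposited values are positions and a score per peak, called per sample. What the score measures is stated in no header, so it ranks peaks within a list. Where the same minimum is applied to both lists, it need not select equal enrichment. Starts are given 1-based. All peaks ended within mm9 chromosome lengths (GenomeInfoDb 1.38.1). Distances, far sequence and even-placement numbers were computed from coordinates in Python 3.11.15 (numpy 2.4.6, pandas 2.3.3, scipy 1.17.1), with no resampling, by code checked on simulated data. Intervals are exact binomial or Poisson at 95%, of medians from order statistics, and of differences by Newcombe's method. The members and comparisons were chosen with earlier results of these data known. Peaks named are the 10 highest-scoring (with ties, and the last with a score of 100 or more), 5 widest and 5 farthest, the runs and stretches with 6 or more members (4 of the 6 runs of 6 drawn, by smaller span), 5 closest pairs, and 3 peaks on each side of 500 kb. Other singled-out stretches, scores, widths and the 250 bp limit were chosen after their values were seen. The gene and promoter tables at hand belong to a later build and were not used.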

Additional observations from a re-analysis of the deposited data

How the results depend on the processing

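Of 55 alternative values for 10 results, 25 stayed within 1.5 times (numbers of peaks) or within the 95% interval (other values) and 30 moved. The score bands and the limit of 250 bp were added after seeing the data. A distance of 250 kb gave 1397 far peaks, 0.446 times even placement, 5.65% of them on chromosome 12, and 14.5% of RbΔL/ΔL peaks far. A distance of 1 Mb gave 126, 0.246 times, 11.9% on chromosome 2, 4.76% on chromosome 12, 1.59% with a neighbour within 10 kb, and 1.46% of RbΔL/ΔL peaks far. With Rb+/+ scores of 60 or more, 252 of 4555 peaks were far, 0.277 times even placement. Of these, 60.3% were in runs and 3.17% had a neighbour within 10 kb, with a median width of 357.5 bp. With Rb+/+ scores of 100 or more, 13 of 1020 were far, 0.0643 times even placement. With both lists at 100 or more, 259 Rb+/+ peaks and 18.4% of RbΔL/ΔL peaks were far, but only 13 of the 259 were far from the whole RbΔL/ΔL list and 81 overlapped a weaker peak of it. Equal list lengths gave 72.8% in runs and 8.36% of RbΔL/ΔL peaks far. A neighbour was present for 3.72% within 1 kb and 30.0% within 100 kb, and for 1.90% within 10 kb after merging. Median widths were 461, 359.5 and 360 bp at scores of 50 to 55, 60 to 70 and 70 to 100. Shares of 46.9% and 8.75% reached scores of 60 and 80, and 0.584% reached 100 without narrow peaks. Definitions set several of these shifts by construction; other causes were not tested. No paired analysis was possible because there are no replicate libraries, so none could be left out either. Weak peaks cannot be judged further without read depth.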

Other observations

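The X chromosome lies outside the rule. Of its 221 Rb+/+ peaks, 51 (23.1%, exact 95% interval 17.7 to 29.2%) were 500 kb or more from a RbΔL/ΔL peak, beside 15.1% on chromosome 12, the highest autosome. Far sequence made up 42.5% of X from 3 Mb on, and held 0.733 far peaks per Mb (interval 0.546 to 0.964), between chromosome 7 and the autosomal mean. These X peaks had a median score of 59.20 and a median width of 405 bp, and 1 reached a score of 100. The sex of the cells was not determined.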
